A study of Homo sapiens with 4 samples.

Results

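The AP-1 and EGR immediate early factors are 10 transcription factor genes, chosen by name: FOS, FOSB, FOSL1, FOSL2, JUN, JUNB, JUND, ATF3, EGR1 and EGR2. In the probe annotation used here, 9 of the 10 had a probe assigned to them alone, 11 probes in all, out of 20046 genes so named. ATF3 had 3 probes and the other 8 genes 1 probe each. EGR2 had none and was not analysed here.

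The cells were H23, an established human lung cancer line. In 2 control samples they overexpressed green fluorescent protein (GFP), and in 2 samples they overexpressed SOX7, one of the SOXF transcription factors. PolyA RNA was taken from nearly confluent cultures and read on Illumina HumanHT-12 v4 BeadChips, whose deposited values are log2 intensities. The labels say neither how SOX7 or GFP was introduced nor whether the samples of a group were separate cultures, so the spread behind the p-values may be technical only.

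AP-1 is a dimer of basic leucine zipper proteins. In AP-1, FOS family proteins bind DNA paired with a JUN family protein. JUN family proteins can also pair with each other or with ATF3. Many of these genes are transcribed within minutes of a growth factor or stress signal, without new protein synthesis, and are therefore called immediate early genes. ERK phosphorylates the ternary complex factors that sit with SRF on the CArG boxes of the FOS and EGR1 promoters, and ERK and JNK also act on the FOS and JUN proteins. EGR1 is a zinc finger factor and EGR2 its close relative.

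The promoters of EGR1, FOS and FOSB, the members with the largest rises, are shown beside that of JUND, the member that fell. They are RefSeq sequences of GRCh38.p14, 250 bases before to 50 after each gene's start, 5′ to 3′ along the gene. Capitals mark every match, on either strand, to TGACGT, the core of the cyclic AMP response element, and to the CArG box.
EGR1, chr5:138465229-138465528, plus strand: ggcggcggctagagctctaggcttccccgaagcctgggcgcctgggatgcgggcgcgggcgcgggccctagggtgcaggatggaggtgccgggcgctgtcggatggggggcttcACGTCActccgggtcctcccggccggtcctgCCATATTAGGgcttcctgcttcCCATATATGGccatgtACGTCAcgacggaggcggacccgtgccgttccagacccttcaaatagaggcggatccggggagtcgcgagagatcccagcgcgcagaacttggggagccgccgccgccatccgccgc
FOS, chr14:75278578-75278877, plus strand: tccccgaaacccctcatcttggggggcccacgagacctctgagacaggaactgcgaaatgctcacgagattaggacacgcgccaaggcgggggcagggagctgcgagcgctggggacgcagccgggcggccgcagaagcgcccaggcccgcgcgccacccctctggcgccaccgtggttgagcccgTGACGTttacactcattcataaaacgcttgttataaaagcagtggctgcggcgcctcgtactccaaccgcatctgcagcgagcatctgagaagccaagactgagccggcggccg
FOSB, chr19:45467746-45468045, plus strand: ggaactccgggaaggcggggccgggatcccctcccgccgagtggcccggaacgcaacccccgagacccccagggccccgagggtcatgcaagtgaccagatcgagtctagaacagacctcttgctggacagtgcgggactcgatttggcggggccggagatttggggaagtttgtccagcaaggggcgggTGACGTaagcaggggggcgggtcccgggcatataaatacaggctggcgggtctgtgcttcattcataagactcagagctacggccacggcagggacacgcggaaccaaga
JUND, chr19:18281573-18281872, minus strand: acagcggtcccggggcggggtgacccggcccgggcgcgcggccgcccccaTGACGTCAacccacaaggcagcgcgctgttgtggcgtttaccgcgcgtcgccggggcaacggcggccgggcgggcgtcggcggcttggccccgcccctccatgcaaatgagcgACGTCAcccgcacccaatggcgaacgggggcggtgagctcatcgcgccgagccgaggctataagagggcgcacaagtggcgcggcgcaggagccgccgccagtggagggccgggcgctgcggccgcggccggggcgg
The EGR1 window held CArG boxes at −105 to −96 and at −83 to −74 relative to the start, and TGACGT matches at −136 to −131 and −67 to −62. FOS held TGACGT at −64 to −59 and FOSB at −60 to −55. The core at this distance was shared by members that did not rise or were not measured, at −66 to −61 in FOSL2 and −55 to −50 in EGR2. Neither of the windows listed for ATF3, the other member that rose, held any of the motifs searched. ATF3 sequence outside these windows, including any other start of the gene, was not searched. The falling JUND held the full element TGACGTCA at −200 to −193, which contains the core on both strands, and another core at −87 to −82. Of the 9 members matched in the promoter table, 6 had the core in at least 1 promoter, and it was present in 7.98% of all 35114 promoters of the same length. The 9 members had 12 promoters, so counts by member and shares of promoters are not like for like, here and below. The core was picked after these promoters had been read, so the count is a description. Within these windows CArG boxes occurred in 2 members, EGR1 and EGR2, and in 1.29% of all promoters. Sequence farther upstream, where the CArG box of FOS is known to lie, was not searched. The full TGACGTCA occurred in 1 member, JUND, and in 1.85% of promoters, and the AP-1 element TGANTCA in 1 member, FOSL2, and in 7.71%. Only exact matches were counted, so near matches such as TGACATCA, present in the JUN window and in an ATF3 window, were not. The EGR element GCGTGGGCG matched no member's window and 0.795% of promoters.

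EGR1 changed most. It read 9.84 and 10.09 on the control arrays and 10.86 and 10.76 on the SOX7 arrays (log2 intensity). Both SOX7 arrays lay above both control arrays, with a gap of 0.67 between the groups against 0.24 between the control arrays. The log2 mean was 9.97 ± 0.17 in control and 10.81 ± 0.075 in SOX7 cells (SD, n = 2), a rise of 1.80-fold (log2 difference 0.85, SE 0.10; limma adjusted p = 1.44e-04). This was the 109th largest of the 1150 rises past an adjusted p of 0.05. With any 1 array left out, the difference ran from 0.72 to 0.97 and its adjusted p from 1.04e-06 to 0.00298. EGR1 was the only member that passed in every such fit and the only one past the threshold that changed at least 1.5-fold.

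**Figure D1:**
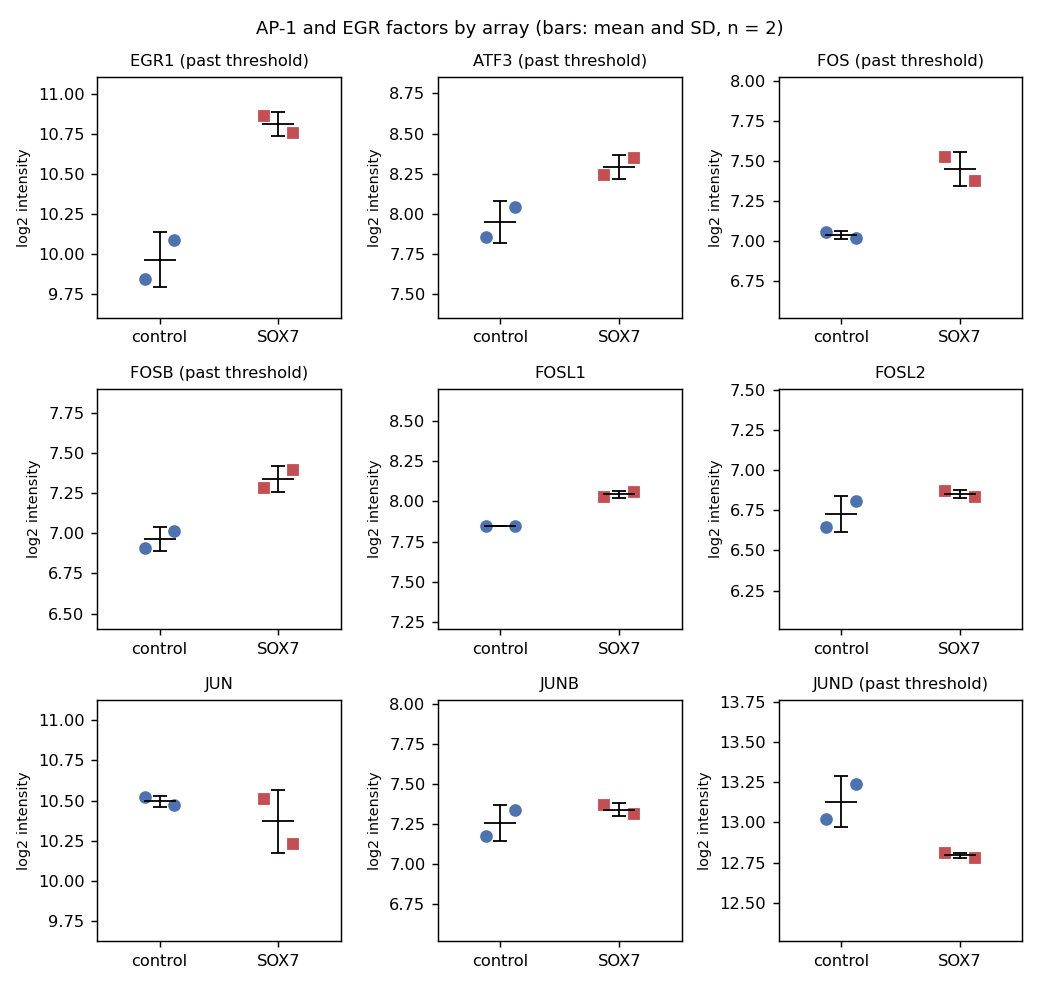
Log2 intensity of the 9 genes on each array, taken from the brightest probe of each; circles are control and squares SOX7 arrays, black bars give the mean and SD of 2 arrays, and all panels span the same 1.5 log2 units, placed at each gene's own level. EGR1 rises from near 10 to near 10.8, whereas JUND falls from 13.13 to 12.79 and the groups overlap for JUN and JUNB.

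Within the FOS family, 2 of 4 members rose, as did 8.98% of all genes tested. FOS, the founding partner of JUN in AP-1, read 7.06 and 7.02 on the control arrays and 7.52 and 7.38 on the SOX7 arrays. The groups did not overlap, and the rise was 1.33-fold (log2 difference 0.41, SE 0.091; limma adjusted p = 0.00826). Its call ended without SOX7 replicate 1 (difference 0.34, adjusted p = 0.0684).

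FOSB, which also gives rise to a shortened splice form that lacks the activation domain, read 6.91 and 7.01 on the control and 7.28 and 7.39 on the SOX7 arrays. These groups were also separate, by 0.27, and the rise was 1.30-fold (log2 difference 0.38, SE 0.091; limma adjusted p = 0.0135). Its call ended without control replicate 1 (adjusted p = 0.0664) and without SOX7 replicate 2 (adjusted p = 0.0920). A single probe reads FOSB here, so its splice forms were not separated.

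FOSL1 and FOSL2 encode FRA1 and FRA2, the FOS relatives without a strong activation domain, and are themselves transcribed in response to AP-1. FOSL1 read 7.85 on both control arrays and 8.03 and 8.06 on the SOX7 arrays. The SOX7 arrays were higher by little, and the difference of 0.20 (95% confidence interval 0.012 to 0.39) did not pass (limma adjusted p = 0.131). FOSL2 read 6.65 and 6.81 against 6.87 and 6.83, a difference of 0.12 (95% confidence interval −0.078 to 0.32; limma adjusted p = 0.398), with 0.025 between the nearest arrays of the groups.

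ATF3, a stress-induced member of the ATF/CREB family that pairs with JUN proteins, read 7.86 and 8.04 on the control and 8.24 and 8.35 on the SOX7 arrays at its brightest probe. The groups were separate, with a rise of 1.27-fold (log2 difference 0.35, SE 0.096; limma adjusted p = 0.0265). The other probes did not follow it. The dim probe assigned to the same transcript, NM_001040619, read 5.87 and 5.94 against 5.76 and 5.82, and the probe assigned to NM_001030287 read 5.98 and 5.96 against 5.62 and 5.86. On both dim probes the SOX7 arrays were the lower ones, with differences of −0.12 (adjusted p = 0.579 over all probes) and −0.23 (adjusted p = 0.264).

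The dim ATF3 probes were brighter than 6.29% and 6.81% of all probes, the bright one than 82.7%. No detection measure was used, so signals this low were not separated from background. The mean of the 3 probes differed by −0.0012 (limma adjusted p = 0.994). Genes around ATF3 on its chromosome were slightly higher as well, by a median of 0.083. With that median removed ATF3 differed by 0.26 and did not pass (adjusted p = 0.0835). The call also ended without control replicate 1 (adjusted p = 0.165), SOX7 replicate 1 (0.0539) or SOX7 replicate 2 (0.144).

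**Figure D2:**
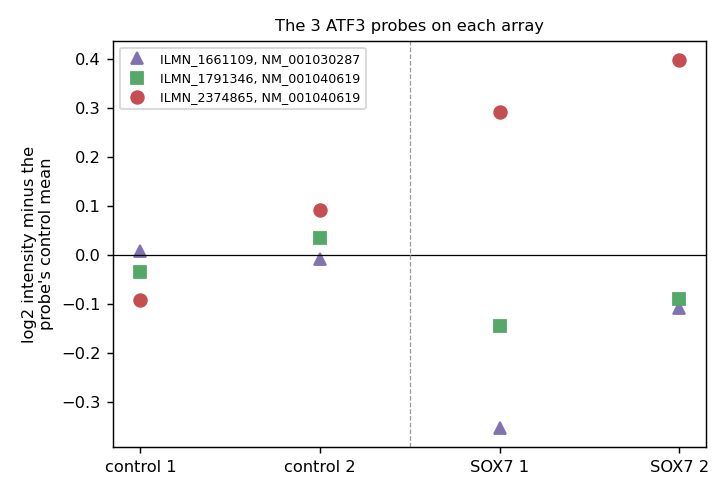
Log2 intensity of the 3 ATF3 probes on the 4 arrays, each as its difference from its own control mean. The bright probe (circles) lies above 0 on both SOX7 arrays, and the 2 dim probes (squares and triangles) lie below 0 there.

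In the JUN family no member rose and 1 of 3 fell, as did 9.83% of all genes tested. JUND, the JUN protein that is present in resting cells and the least dependent on stimulation, read 13.02 and 13.24 on the control arrays and 12.81 and 12.78 on the SOX7 arrays. Both SOX7 arrays lay below both control arrays, and the fall was 1.26-fold (log2 difference −0.34, SE 0.097; limma adjusted p = 0.0317). The control arrays differed by 0.22, and without the higher of them, control replicate 2, the difference was −0.22 and did not pass (adjusted p = 0.217). It did not pass without SOX7 replicate 1 (0.0952) or SOX7 replicate 2 (0.120) either.

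JUN, the main transactivating partner of FOS, read 10.52 and 10.47 on the control and 10.51 and 10.23 on the SOX7 arrays. SOX7 replicate 1 lay between the control arrays, so the groups overlapped, and the difference was −0.13 (95% confidence interval −0.35 to 0.10; limma adjusted p = 0.446). Without SOX7 replicate 2 it was 0.014. JUNB, a weaker activator that can oppose JUN, read 7.18 and 7.33 against 7.37 and 7.31, also overlapping, with a difference of 0.085 (95% confidence interval −0.12 to 0.29; limma adjusted p = 0.578). These intervals leave out a change of 1.5-fold for JUN and JUNB in either direction. A lower signal in a whole culture does not tell fewer cells with the transcript from less transcript per cell.

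**Figure D3:**
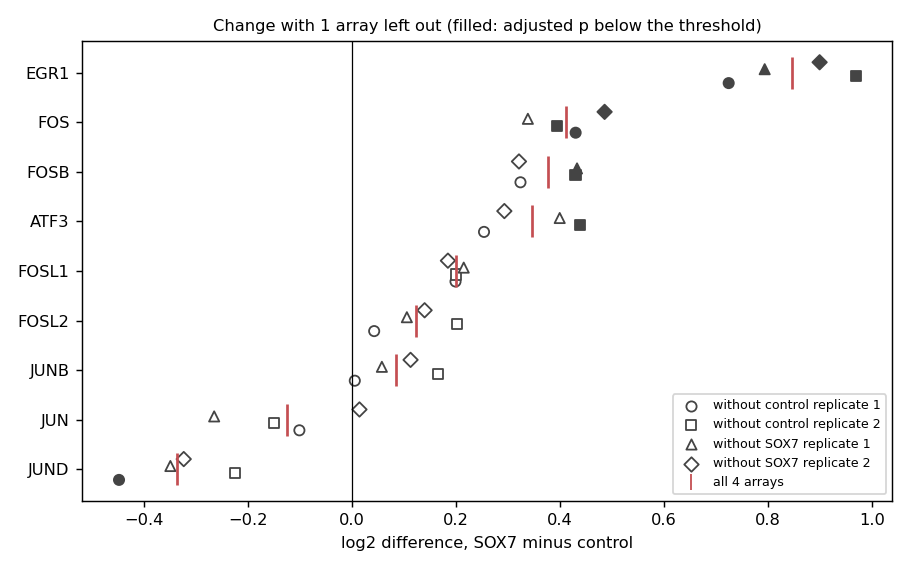
Log2 difference (SOX7 minus control) of the 9 genes with all 4 arrays (red bars) and with each array left out in turn (symbols, filled where the adjusted p was below 0.05). All 4 symbols of EGR1 are filled, whereas FOS, FOSB, ATF3 and JUND have at least 1 open symbol and JUN crosses 0.

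All 9 measured members passed the intensity filter, and 5 were past the threshold, 4 higher and 1 lower. Of all 12804 genes tested, 18.8% were past it, 8.98% higher and 9.83% lower. The members' median difference was 0.20, against 0.0035 over all genes, and 7 of the 9 were positive. Control and SOX7 arrays were separate for 7 of the 9, as they were for 58.5% of all genes. On leaving out either SOX7 array 2 members passed, against 3 on leaving out control replicate 1 and 4 on leaving out control replicate 2. FOS ranked 567th, FOSB 680th and ATF3 818th among the 1150 rises, and JUND 961st among the 1258 falls.

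Tested over all 30113 probes that carry 1 gene, with no intensity filter, 3 of the 11 member probes passed, all higher, where 6.70% of all probes did (3.13% higher and 3.57% lower). They were those of EGR1 (limma adjusted p = 3.43e-04), FOS (0.0255) and FOSB (0.0403). The bright ATF3 probe (0.0701) and the JUND probe (0.0820) no longer passed in this larger family of tests.

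**Figure D4:**
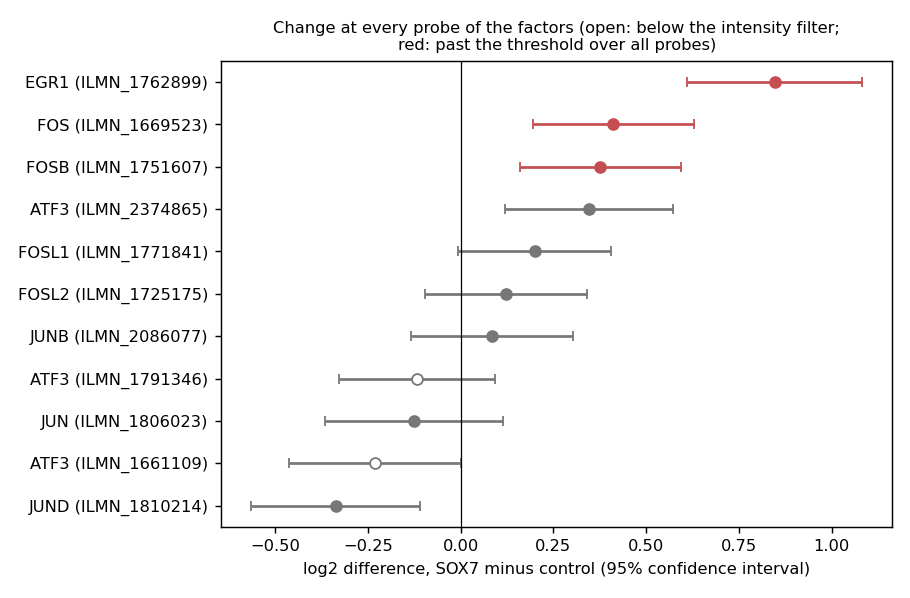
Log2 difference (SOX7 minus control) with its 95% confidence interval for each of the 11 probes, fitted over all probes that carry 1 gene. Filled points are probes above the intensity filter and red points passed the threshold: EGR1, FOS and FOSB do, and the 2 open ATF3 points lie on the other side of 0 from the filled one.

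The genes whose 4 array values, centred on the control mean, came closest to those of EGR1 were NLRP2, TMEM156 and TOX2, with root mean square differences of 0.0323, 0.0406 and 0.0413 log2 units over 4 arrays. For FOS they were SPOPL (0.0142), ISG15 (0.0218) and AGFG1 (0.0224). With 4 arrays this likeness mostly reflects a difference of similar size, 0.81 for NLRP2 and 0.39 for SPOPL.

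Among other basic leucine zipper genes that can pair with these factors, the median difference was 0.14. Of 8 tested members 2 rose (25%) and none fell, against 18.8% of all genes past the threshold. Those that rose were BATF3, an AP-1 protein of immune cells (0.41, limma adjusted p = 0.0153), and MAFF, a small MAF protein without an activation domain (0.36, adjusted p = 0.0157). Both lost their calls without control replicate 2, at adjusted p of 0.118 and 0.0665, and without SOX7 replicate 2, and BATF3 also without SOX7 replicate 1. The 2 dimmer MAFF probes did not pass over all probes (adjusted p = 0.336 and 0.496).

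Against 18.8% of all genes past the threshold, 1 of 4 tested members (25%) of the remaining EGR family and the NAB corepressors rose. This was NAB2, which binds EGR1 and represses it and is itself an EGR1 target (0.42, limma adjusted p = 0.0154), with a call lost without control replicate 1 (0.0969) or SOX7 replicate 1 (0.111). With the median change of its neighbouring genes removed it differed by 0.31 and did not pass either (0.0677). EGR3 differed by 0.18 (adjusted p = 0.223). Its control mean of 6.17 lay below the intensity filter at 6.25, so it was tested only through its SOX7 arrays. Its place among the 4 therefore follows in part from the filter. EGR4 lay below the intensity filter.

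Of the genes of 3 lists that act upstream, 6 of 24 (25.0%) were past the threshold, against 18.8% of all genes. Of SRF and its cofactors 0 of 6 rose and 1 fell, namely MRTFB, an actin-regulated coactivator of SRF (−0.33, limma adjusted p = 0.0212), whose call was lost without control replicate 1 or either SOX7 array, at adjusted p of 0.0547 to 0.106. SRF itself differed by −0.27 (adjusted p = 0.0596). Of the JNK and p38 kinases, 3 of 10 rose and 1 fell. The kinase of p38, MAP2K3 (0.46), the upstream kinase MAP3K1 (0.31) and MAPK8, the gene of JNK1 (0.30), were higher, and MAPK11, the gene of p38 beta, was lower (−0.54). The MAPK8 probe that rose did not pass over all probes (limma adjusted p = 0.123). It is not assigned to NM_139049, the transcript of the other MAPK8 probe. That other probe differed by −0.028 (adjusted p = 0.938 over all probes) and the other MAPK11 probe by −0.042 (0.879). At the other MAP2K3 probes above the filter the differences were 0.45 (limma adjusted p = 0.0651 over all probes) and 0.14 (0.498). At those below it they were 0.11 (0.728), −0.24 (0.192) and −0.32 (0.0987). The calls of MAP3K1 and MAPK8 each ended on leaving out any of 3 of the 4 arrays, at adjusted p of 0.0813 to 0.316. With the median change of neighbouring genes removed, MAP3K1 (0.195) and MRTFB (0.102) did not pass. Of the CREB family and its kinases 0 of 8 rose and 1 fell, CREM (−0.32, adjusted p = 0.0242), with a call lost without control replicate 1 or either SOX7 array (0.0801 to 0.123).

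Of 21 other immediate early genes tested, 4 rose and 2 fell (28.6%, against 18.8% of all genes), and the median difference was 0.14. NR4A2, an orphan nuclear receptor (0.60), CCN2, a matricellular protein (0.37), and IER3 (0.29) rose. The fourth, the polo-like kinase gene PLK2 (0.49), passed the intensity filter only through its SOX7 arrays, with a control mean of 6.07 below the filter at 6.25, so its place among them follows in part from the filter. ZFP36L1, which promotes decay of AU-rich mRNAs (−0.71), and DUSP1, a phosphatase of MAP kinases (−0.45), fell. NR4A2 and ZFP36L1 passed without any 1 array, whereas the other 4 calls each ended on leaving out at least 1 array. DUSP1 did not pass without SOX7 replicate 1 (difference −0.34), nor PLK2 without control replicate 2 (0.21). CCN2 did not pass without control replicate 1 (0.34) or without SOX7 replicate 1 (0.31). IER3 passed only without control replicate 2 (0.37), and differed by 0.21 to 0.33 without any other array. On leaving out SOX7 replicate 1 or SOX7 replicate 2, PLK2 was below the intensity filter and was not tested, and with the median change of its neighbours removed it did not pass (0.0936). MYC (0.011), KLF6 (−0.018) and SGK1 (0.021) differed least. KLF4 was not past the threshold at its brightest probe (0.15). Its other probe rose by 0.52 (limma adjusted p = 0.0189 over all probes), with 0.36 between its control arrays.

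Genes described as targets of AP-1 changed in both directions. The list was drawn up with the rises of EMP1, MMP10 and CXCL8 already known. Of 18 tested, 6 rose and 5 fell (61.1%, against 18.8% of all genes), with a median of 0.14. Of these, MMP3 was tested only through its SOX7 arrays (control mean 6.22, filter at 6.25) and was not past the threshold. EMP1 (3.72), MMP10 (3.46), CXCL8 (1.23) and MMP1 (1.04) had the smallest p among the rises, MMP10 and MMP1 being matrix metalloproteinase genes. The falls were PLAU, the gene of urokinase (−1.01), the metallothionein MT2A (−0.73), IL6 (−0.60), CD44 (−0.56) and VEGFA (−0.41). The last lost its call without SOX7 replicate 2 (adjusted p = 0.110), and its other probe above the filter differed by −0.14 (0.541 over all probes). Of 10 tested genes described as EGR1 targets, 2 rose, EGR1 itself and NAB2, and 1 fell, CD44 (30%, against 18.8% of all genes). Their median was −0.020. The call of EGR1 is that of the member described above, and NAB2 and CD44 were counted in other lists. The share is therefore no separate result.

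**Figure D5:**
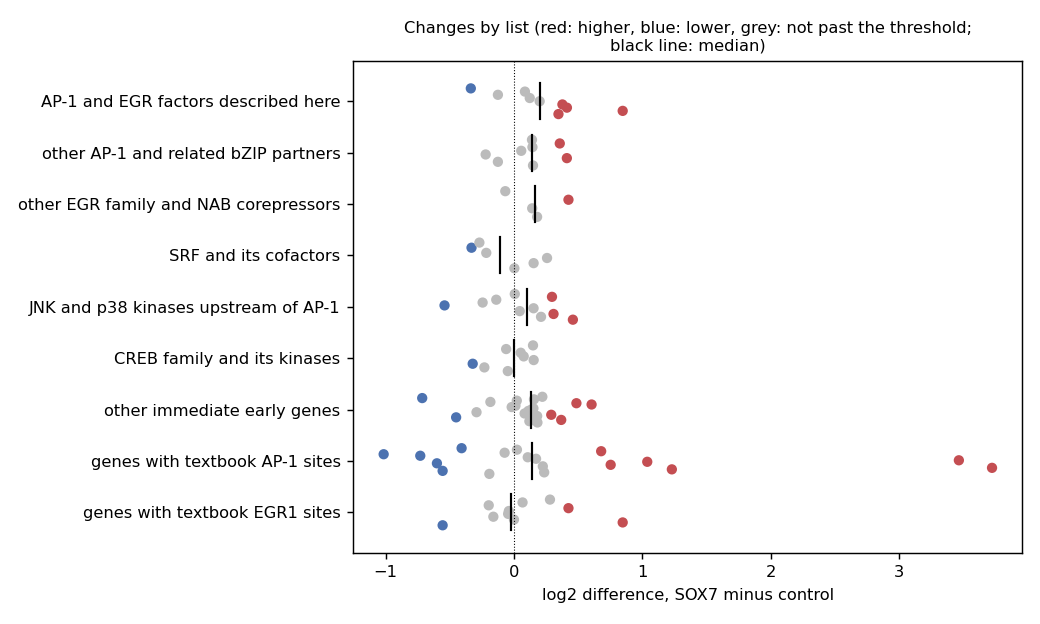
Log2 difference (SOX7 minus control) of each tested gene by list, with the list's median as a black line; red genes were higher and blue genes lower past the threshold. The factors described here lie between −0.34 and 0.85. Genes with AP-1 sites reach 3.72 at EMP1, which was put on that list with its rise known.

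Across the series, arrays of 1 group correlated at 0.995 over 48107 probes and arrays of different groups at 0.990. The SOX7 probe with the higher mean differed by 0.34 (limma adjusted p = 0.0583) and the other by 0.0039. It is not known here whether either probe can read the introduced transcript, so neither is a check of the overexpression. Of 10 lung and epithelial markers 4 passed the intensity filter, and CDH1, KRT19, NKX2-1, NAPSA, SFTPB and SFTPC did not. The mean log2 level of these 10 was 6.50 to 6.51 on the control and 6.60 on the SOX7 arrays, with 1 marker higher, KRT18 (0.45). All 5 endothelial markers lay below the filter (mean 6.02 to 6.05 against 5.86 to 5.97), as did PTPRC, CD3D and CD3E among 5 blood cell markers (7.46 to 7.55 against 7.45 to 7.50), of which CD14 rose (0.64) and CD68 fell at its brightest probe (−1.04) but differed by −0.28 and −0.29 at the others, which did not pass. The 6 fibroblast markers averaged 6.68 to 6.73 against 6.52 to 6.57, with COL3A1 lower (−1.18). LUM was higher (0.52) at a probe that passed the filter only through the SOX7 arrays (control mean 6.22), and differed by 0.044 at the other. The part of these marker differences in the changes above was not tested.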

How the data were processed

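The deposited table holds log2 intensities of 48107 probes on 4 arrays. From the values, the authors had quantile normalized them, since the sorted arrays differ by at most 0.000683. Neither the software nor any background correction is given in the sources used here, and no detection measure was used. Probes were named with the platform annotation: 30113 carried 1 gene, 8 several and 17986 none. Each of 20046 genes was represented by its brightest probe, and the 12804 with a mean at or above the median of all probe means (6.25) were tested.

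Groups were compared with limma 3.58.1 (R 4.3.3), two-sided, 2 residual and 11.7 moderated degrees of freedom, with Benjamini-Hochberg adjustment over all genes and a threshold of 0.05. All 30113 probes were fitted likewise without a filter. The method was tested on simulated data. Differences are SOX7 minus control. Precision is limited by the number of arrays. Members and lists were chosen with earlier results of these data known. Named are all members and the 3 genes nearest to EGR1 and to FOS. From each list, members past the threshold are named, at most 4 with the smallest p, or all where a count is 5 or fewer. SRF, EGR3, EGR4, MMP3, MYC, KLF4, KLF6, SGK1 and the markers were named after their values were seen. Alternatives were other filters, an offset of 16 on the linear scale, the mean of probes, a trend and robust prior, the replicate number as a block, other normalization, the median change of neighbouring genes on the chromosome removed, a threshold of 0.01, and leaving out each array, after which a lone array is assumed to vary like the other group. The study's design text also names H1299 and PC14 cells, which were not analysed here. The labels give no slide or date.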

Additional observations from a re-analysis of the deposited data

How the results depend on the processing

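EGR1 passed in all 13 alternatives of the per-gene fit, with differences of 0.72 to 0.97. FOS passed in 12 of 13, FOSB in 10 of 12, JUND in 9 of 13 and ATF3 in 7 of 13, while FOSL1, FOSL2, JUN and JUNB passed in none. The 5 members past the threshold became 3 with no intensity filter, where ATF3 (adjusted p = 0.0581) and JUND (0.0685) did not pass, and 2 at a threshold of 0.01, where 1224 genes passed in place of 2408. ATF3 reversed to −0.0012 for the mean of its probes. FOSB and FOSL2 were not tested with a filter at the 75th percentile, being dimmer than it. Leaving out 1 array gave 1529 to 1984 genes and 2 to 4 members, and JUN from −0.27 to 0.014. Over all probes, 2018 passed, 3138 with a trend and robust prior, and 836 to 1404 without 1 array. The 3 member probes past the threshold became 5 with an offset of 16, a trend and robust prior, the replicate block or a filter at the median, and 1 without any 1 array. The labels do not say whether same-numbered arrays belong together. Their deviations correlated at −0.017 across genes, which shows no shared effect but cannot tell whether they were handled together. With the replicate block 2834 genes passed, among them 5 members.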
